A study of Mus musculus with 9 samples.

Results

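The mouse CXCR2 axis was followed through 8 genes of whole lung, 6 chemokine ligands (Cxcl1, Cxcl2, Cxcl3, Cxcl5, Cxcl15 and Ppbp) and 2 receptors (Cxcr1 and Cxcr2). They were chosen by name as the neutrophil-attracting chemokines of this axis and its receptors, and all 8 were found among the 34638 genes measured. Wild-type C57BL/6 mice formed 3 groups of 3. Control mice received phosphate buffered saline by the airway. IL-33 mice received 0.5 µg of recombinant mouse IL-33 into the trachea at each challenge on days 0, 1, 2 and 3. IL-33+LM8 mice received the same challenges after an intraperitoneal injection of LM8, an inhibitor of the adaptor MyD88, at 10 mg/kg. The control and IL-33 mice were females of 6 to 8 weeks whose lungs were taken on day 4, and the same details for the IL-33+LM8 mice are not given in the sources used here. No group received LM8 without IL-33, so a difference between IL-33+LM8 and control mice holds both agents together. Each value is from 1 mouse, and p-values measure the spread between these mice.

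IL-33 is an alarmin released by damaged epithelium, and its receptor signals through MyD88. The CXCR2 ligands carry a Glu-Leu-Arg motif ahead of the first cysteines and guide neutrophils out of blood, and CXCR2 on the neutrophil surface is their main receptor, while CXCR1 binds fewer of them. In lung, epithelium, macrophages and endothelium make the inducible ligands, airway and alveolar epithelium make Cxcl15 (lungkine), and platelets carry the product of Ppbp, the precursor of CXCL7. Bulk lung RNA cannot tell fewer cells of a type from less RNA in each cell.

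The 6 ligand genes lie side by side on chromosome 5 together with Pf4, whose product, platelet factor 4, lacks that motif. By the table's own coordinates, for which the file names no build, these 7 genes span 90907219 to 91053797, or 146579 bases. Their order is Cxcl5, Ppbp, Pf4, Cxcl3, Cxcl15, Cxcl1 and Cxcl2, all on the plus strand. The 2 receptor genes share 40643 bases of chromosome 1, Cxcr2 at 74193148 to 74200405 on the plus strand and Cxcr1 at 74230944 to 74233790 on the minus strand. 

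The stretches before the start sites are shown because neighbouring ligand genes differed in how they moved. RefSeq, on build GRCm38.p6, gave a promoter window for 7 of the 8 genes. The 100 bases before the start are printed 5′ to 3′ on the plus strand for the 5 ligand genes with a window, with matches to the NF-κB consensus and to the TATA box TATAAA in capitals. They are chr5:90891145-90891244 for Cxcl1, chr5:90903799-90903898 for Cxcl2, chr5:90786001-90786100 for Cxcl3, chr5:90794434-90794533 for Cxcl15 and chr5:90768418-90768517 for Ppbp.
Cxcl1: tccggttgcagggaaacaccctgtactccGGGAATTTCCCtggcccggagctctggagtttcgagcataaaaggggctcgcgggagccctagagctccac
Cxcl2: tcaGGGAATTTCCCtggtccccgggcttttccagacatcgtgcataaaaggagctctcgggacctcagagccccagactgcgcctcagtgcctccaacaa
Cxcl3: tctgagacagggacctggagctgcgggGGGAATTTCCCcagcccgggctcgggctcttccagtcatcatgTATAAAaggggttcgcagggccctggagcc
Cxcl15: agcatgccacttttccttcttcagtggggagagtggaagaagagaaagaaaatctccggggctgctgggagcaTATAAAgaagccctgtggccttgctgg
Ppbp: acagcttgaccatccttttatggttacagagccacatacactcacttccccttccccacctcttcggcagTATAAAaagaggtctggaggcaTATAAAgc
Cxcl1, Cxcl2 and Cxcl3 held the same run, GGGAATTTCCC, which holds a match to the NF-κB consensus on each strand, 1 base apart, and begins 71, 97 and 73 bases before the start. The 250 bases before the start of Cxcl15, Ppbp, Cxcr1 and Cxcr2 held no match to it, and 7.3% of 32851 such windows held at least 1. A TATA box on the gene's strand began 30 bases before the start of Cxcl3, 27 before that of Cxcl15 and 30 and 8 before that of Ppbp, and 7.6% of all windows held one. The AP-1 core TGANTCA, searched on both strands and present in 6.7% of windows, was found in Ppbp, and the C/EBP core TTNNGNAA, present in 36.8%, in Cxcl2. A match describes the letters and does not show that a factor was bound.

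Counts per library totalled 61767006 to 73869252 in control, 53877663 to 66029783 in IL-33 and 59753648 to 90607218 in IL-33+LM8 mice. Levels are given in FPKM, which divides fragments by transcript length and by library size, and differences as log2 fold changes of the counts with adjusted p-values from edgeR (quasi-likelihood test, Benjamini-Hochberg over all genes tested). A gene was called when its adjusted p was under 0.05 and its log2 fold change at least 1 in size. All 8 genes passed the filter of a mean of 0.5 FPKM over the 9 mice, but Cxcl2 and Cxcl3 were below 0.5 FPKM in every control mouse and passed through the treated groups. Cxcr1 was below 0.5 FPKM in every control and IL-33 mouse and passed through the IL-33+LM8 mice alone, the group its comparisons with LM8 turn on. Of the list genes set beside the 8 below, Ly6g, Stfa2l1, Prtn3 and Tnf also passed only through the IL-33+LM8 mice. Ccr3 passed only through the IL-33 mice. For a single gene an exact two-sided permutation test of 3 mice against 3 gives at least 0.1, the value of every pair of groups that did not overlap.

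Against control, IL-33 raised Cxcr2, Cxcl3 and Cxcl2 and lowered Ppbp. With 3 of 8 genes called higher and 1 called lower, the axis stood beside 10.8% of all genes tested that were called higher and 6.24% called lower. In 5 of the 8 genes all IL-33 mice were above all control mice, against 31.7% of all genes, and in 1 all were below, also against 31.7%. The median log2 fold change of the 8 was 0.86, and that of all genes was -0.005. Cxcl2 and Cxcl3, which passed the filter through the treated groups, are in these counts and in the median.

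With LM8 given before IL-33, 4 of the 8 genes were higher than with IL-33 alone and none was lower. They were Cxcl2, Ppbp, Cxcr2 and Cxcl5, beside 1.46% of all genes called higher and 3.93% called lower. Every IL-33+LM8 mouse was above every IL-33 mouse in 6 of the 8 genes, against 21.2% of all genes, and below in none, against 22.0%. The median log2 fold change was 1.26 over the 8 genes and -0.006 over all genes. Against control, 5 of the 8 were called higher and none lower, beside 5.87% and 1.46% of all genes. Every IL-33+LM8 mouse was above every control mouse in 7, against 23.4% of all genes, and below in none, against 23.9%, with a median of 2.13 against 0.003 over all genes. Cxcr1, which passed the filter through the IL-33+LM8 mice alone, is in the 6, in the 7 and in both medians. Cxcl2 and Cxcl3, which passed it through the treated groups, are in the 5 and in the 7. The 3 comparisons share mice, so each is given by its own values.

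**Figure D1:**
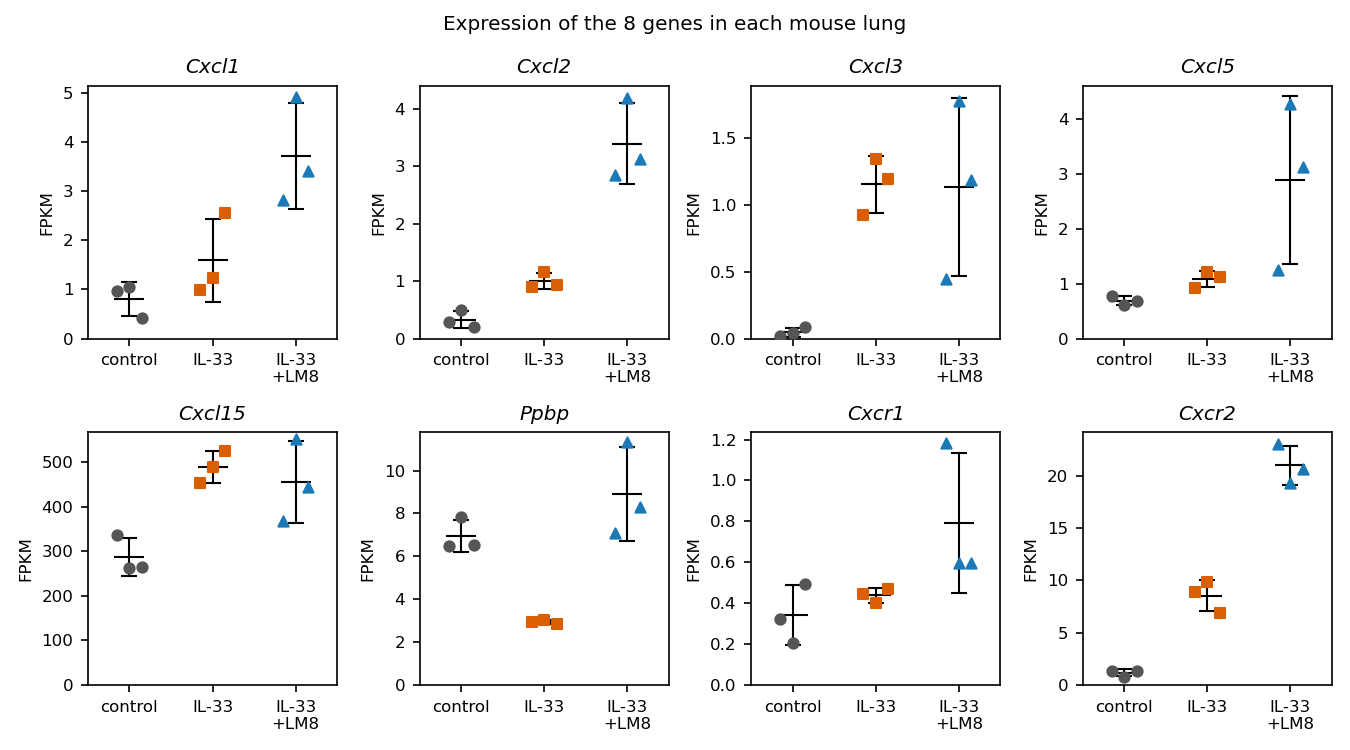
FPKM (vertical axis, from 0, with its own scale for each gene) of the 8 genes in each mouse of the control, IL-33 and IL-33+LM8 groups. Points are mice, and horizontal bars with whiskers are the mean ± SD of 3 mice. Cxcr2 steps up from 1.17 to 8.53 and 21.0 FPKM on average, while Ppbp dips to 2.94 FPKM in IL-33 mice and Cxcl3 leaves the axis only after IL-33.

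Among the inducible ligands, Cxcl2 (MIP-2), made early by macrophages and by neutrophils themselves, was 0.291, 0.489 and 0.198 FPKM in the control mice, 0.902, 1.16 and 0.939 in the IL-33 mice and 2.85, 4.20 and 3.14 in the IL-33+LM8 mice. The 3 groups did not overlap and were ordered control, IL-33, IL-33+LM8. Its log2 fold change was 1.56 (SE 0.35, adjusted p = 0.0074) with IL-33 against control and 1.75 (SE 0.22, adjusted p = 0.0012) with IL-33+LM8 against IL-33. Mean FPKM was 10.4 times the control mean in IL-33+LM8 mice, a log2 fold change of 3.32 (SE 0.35, adjusted p = 0.00074). These values rest on 34 to 68 counts a mouse in control, 111 to 153 in IL-33 and 371 to 612 in IL-33+LM8 mice.

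Cxcl1 (KC), which epithelium, endothelium and macrophages make when stimulated, was 0.965, 1.06 and 0.417 FPKM in control, 0.989, 1.22 and 2.56 in IL-33 and 2.82, 4.92 and 3.41 in IL-33+LM8 mice. Control and IL-33 mice overlapped, and 1 IL-33 mouse, replicate 3, stood near the lowest IL-33+LM8 mouse. Cxcl1 was called against control in IL-33+LM8 mice (log2 fold change 2.19, SE 0.39, adjusted p = 0.0061). It was not called with IL-33 against control (0.96, 95% interval -0.17 to 2.09, adjusted p = 0.13) or with IL-33+LM8 against IL-33 (1.22, 95% interval 0.29 to 2.14, adjusted p = 0.059). Both depend on IL-33 replicate 3, without which the first was 0.45 (adjusted p = 0.44) and the second 1.75 (adjusted p = 0.012) in the same edgeR test.

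Cxcl3, a related ligand of monocytes and dendritic cells, was barely counted in control lung, with 4, 11 and 23 counts in the 3 mice, or 0.0174, 0.0440 and 0.0838 FPKM. It was 0.926, 1.34 and 1.19 FPKM in IL-33 and 0.448, 1.77 and 1.18 in IL-33+LM8 mice. Both treated groups lay above every control mouse and overlapped each other, with the lowest treated value in IL-33+LM8 replicate 1. The log2 fold change was 4.49 (SE 0.51, adjusted p = 0.00026) with IL-33 and 4.48 (SE 0.69, adjusted p = 0.0034) with IL-33+LM8, each against control. These rest on few control counts, and without control replicate 3 they were 5.10 and 5.10. Between IL-33+LM8 and IL-33 the log2 fold change was -0.02, with a 95% interval of -1.07 to 1.03 that holds a change of 2 times in either direction (edgeR, adjusted p = 0.98).

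Cxcl5 (LIX), made in lung mainly by alveolar type 2 cells and carried by platelets, was 0.771, 0.610 and 0.684 FPKM in control, 0.924, 1.22 and 1.12 in IL-33 and 1.25, 4.29 and 3.12 in IL-33+LM8 mice. The groups did not overlap, but IL-33+LM8 replicate 1 lay just above the highest IL-33 mouse and well under the other IL-33+LM8 mice. With IL-33+LM8 against IL-33 the log2 fold change was 1.41 (SE 0.42, adjusted p = 0.045), and this call was the least firm. In edgeR it was lost without IL-33 replicate 1, 2 or 3 (adjusted p = 0.13, 0.092 and 0.11) and without IL-33+LM8 replicate 2 or 3 (0.12 and 0.10). Against control it was 2.07 (SE 0.43, adjusted p = 0.011) with IL-33+LM8 and 0.65 (SE 0.22, adjusted p = 0.041, under the fold required) with IL-33.

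These 4 ligands were close in level in IL-33 lung. In IL-33 mice the mean FPKM was 1.59 ± 0.849 for Cxcl1, 1.16 ± 0.212 for Cxcl3, 1.09 ± 0.149 for Cxcl5 and 1.00 ± 0.142 for Cxcl2 (SD, n = 3), and the mice of each pair of neighbours in that order overlapped. In control mice the order was Cxcl1 at 0.813 ± 0.346, Cxcl5 at 0.689 ± 0.0807, Cxcl2 at 0.326 ± 0.148 and Cxcl3 at 0.0484 ± 0.0334, and only the first pair overlapped. In IL-33+LM8 mice Cxcl1 at 3.72 ± 1.08, Cxcl2 at 3.40 ± 0.710 and Cxcl5 at 2.89 ± 1.53 overlapped, and Cxcl3 at 1.14 ± 0.665 overlapped Cxcl5 but lay below the others. The summed FPKM of the 4 was 2.05, 2.20 and 1.38 in control, 3.74, 4.95 and 5.81 in IL-33 and 7.38, 15.2 and 10.8 in IL-33+LM8 mice, with no overlap. Cxcl3 made up 0.852, 2.00 and 6.06% of that sum in control, 24.8, 27.2 and 20.5% in IL-33 and 6.07, 11.7 and 10.9% in IL-33+LM8 mice. Its share was thus highest in every IL-33 mouse, while the share of Cxcl2 was highest in IL-33+LM8 mice, at 38.7, 27.7 and 28.9% against 24.1, 23.5 and 16.2% in IL-33 mice.

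**Figure D2:**
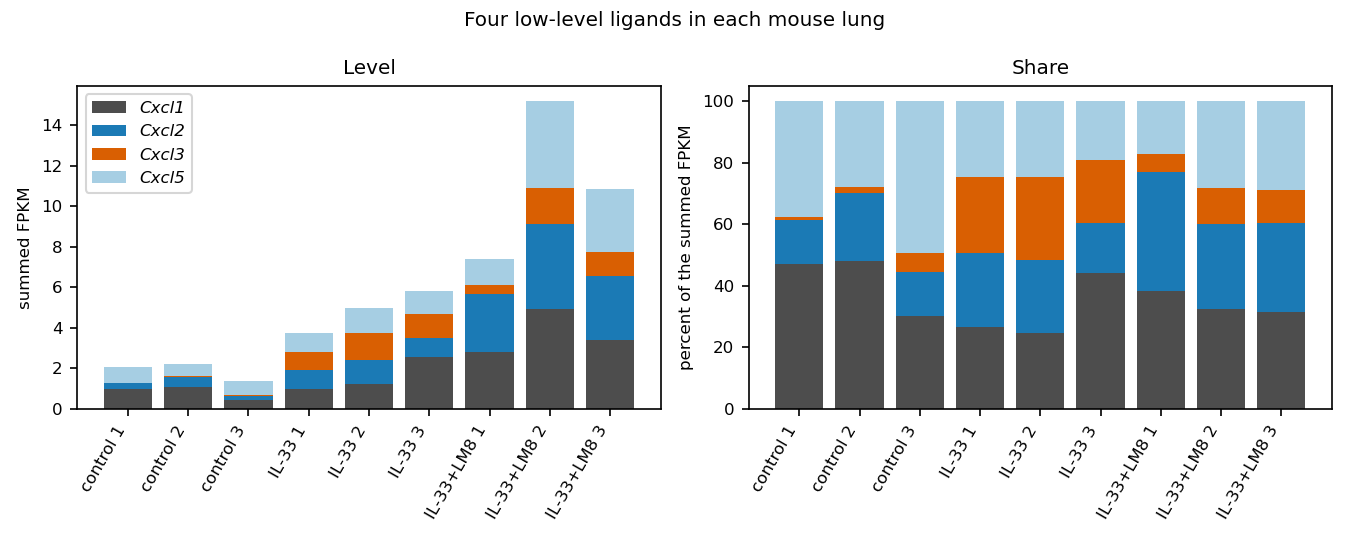
Summed FPKM (left, stacked bars from 0) of Cxcl1, Cxcl2, Cxcl3 and Cxcl5 in each of the 9 mice, and the percentage of that sum each ligand made up (right). The sum is 1.88 FPKM on average in control, 4.84 in IL-33 and 11.1 in IL-33+LM8 mice, and the Cxcl3 band is widest in the 3 IL-33 mice.

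Cxcl2 and Cxcl3 share sequence. Of 2121 stretches of 31 bases in the GENCODE M21 transcripts of Cxcl2, 161 also occur in Cxcl3, and no other pair of the 8 genes shares any. Reads from those stretches could be assigned to either gene. The ratio of Cxcl2 to Cxcl3 FPKM was 16.7, 11.1 and 2.37 in control, 0.974, 0.866 and 0.788 in IL-33 and 6.37, 2.37 and 2.65 in IL-33+LM8 mice, so it was lowest in every IL-33 mouse.

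Cxcl15, the constitutive ligand of lung epithelium, exceeded all other ligands at 337, 262 and 264 FPKM in control, 452, 489 and 524 in IL-33 and 368, 551 and 444 in IL-33+LM8 mice. It made up 97.0 ± 0.611% of the FPKM of the 6 ligands in control, 98.4 ± 0.0929% in IL-33 and 95.8 ± 0.409% in IL-33+LM8 mice (SD, n = 3). Both treated groups lay above every control mouse and overlapped each other. Its log2 fold change of 0.76 (SE 0.12, adjusted p = 0.0013) with IL-33 and 0.67 (SE 0.17, adjusted p = 0.025) with IL-33+LM8 against control passed the p threshold but not the required fold. Between IL-33+LM8 and IL-33 it was -0.10, with a 95% interval of -0.45 to 0.24 (edgeR, adjusted p = 0.66). Cxcl15 overlaps one other entry, ENSMUSG00002076065 on the minus strand, which had 4 to 18 counts in any mouse.

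The markers of the epithelium that makes Cxcl15 did not move as 1 group. The summed FPKM of 9 alveolar type 2 markers was 13640 to 14760 in control, 7665 to 7910 in IL-33 and 12180 to 13440 in IL-33+LM8 mice, and that of 6 club cell markers was 22740 to 24840, 8924 to 9978 and 17870 to 19290. The alveolar type 2 sum is mostly Sftpc, at 11030 of 14070 FPKM on average in control. With IL-33 against control Sftpc was the 1 of 9 alveolar type 2 genes called lower (log2 fold change -1.15), and at an unadjusted p under 0.05 with no minimum fold 4 were lower and 1 higher. The higher one was Sftpd, a lung collectin, whose log2 fold changes of 0.73 with IL-33 against control, -0.09 with IL-33+LM8 against IL-33 and 0.66 with IL-33+LM8 against control (edgeR, adjusted p = 0.00011, 0.53 and 0.0037) lay beside those of Cxcl15 at 0.76, -0.10 and 0.67. Of the 6 club cell genes 5 were called lower with IL-33, with Scgb3a2 at -3.53 and Cyp2f2 at -2.57, and none higher. With IL-33+LM8 against IL-33, 2 of the 6 club cell genes were called higher and none of the alveolar type 2 genes in either direction, though 5 of these were higher at an unadjusted p under 0.05 and smaller folds. Against control, IL-33+LM8 mice had 2 club cell genes called lower and no alveolar type 2 gene called (2 higher and 3 lower at an unadjusted p under 0.05). No marker of either list was at 0 in all mice, and the part of these cells in the level of Cxcl15 was not tested.

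Ppbp took the opposite course to the other ligands with IL-33. It was 6.50, 7.82 and 6.54 FPKM in control, 2.94, 3.04 and 2.85 in IL-33 and 7.09, 11.4 and 8.31 in IL-33+LM8 mice. Every IL-33 mouse was below all 6 other mice, and control and IL-33+LM8 mice overlapped. The log2 fold change was -1.24 (SE 0.15, adjusted p = 0.00033) with IL-33 against control and 1.60 (SE 0.20, adjusted p = 0.0012) with IL-33+LM8 against IL-33. Against control it was 0.38 with a 95% interval of -0.09 to 0.84 (edgeR, adjusted p = 0.19) in IL-33+LM8 mice.

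Pf4, the neighbour of Ppbp and its companion in the platelet granule, went the other way. It was 3.24, 4.77 and 4.39 FPKM in control, 9.14, 8.41 and 8.95 in IL-33 and 5.92, 6.47 and 6.85 in IL-33+LM8 mice, with no overlap between groups. Its log2 fold change with IL-33 was 1.09 (SE 0.18, adjusted p = 0.0019), so the ratio of Ppbp to Pf4 FPKM was 2.00, 1.64 and 1.49 in control and 0.322, 0.361 and 0.318 in IL-33 mice. In IL-33+LM8 mice the ratio was 1.20, 1.75 and 1.21, which overlapped control. The summed macrophage and monocyte markers had the same order of groups as Pf4, lowest in control and highest in IL-33 mice. Which cells Pf4 came from was not tested, so the ratio need not describe platelets alone.

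Of 11 platelet and megakaryocyte markers, 6 passed the filter, and they did not move together. With IL-33 against control, Gp9 (log2 fold change -1.94) and Tubb1 (-1.38), a platelet surface receptor subunit and a platelet tubulin, fell with Ppbp. Itgb3 (1.46), an integrin subunit also present on other cells, and Pf4 rose, while Itga2b (0.23) and Clec1b (-0.68) were not called. With IL-33+LM8 against IL-33, Gp9 (2.40) and Tubb1 (1.25) rose with Ppbp and Itgb3 fell (-1.02), and none of the 6 was called between IL-33+LM8 and control, where 3 were higher at an unadjusted p under 0.05 in edgeR. The summed FPKM of the 11 was 20.7 to 23.2 in control, 29.0 to 32.6 in IL-33 and 25.3 to 27.1 in IL-33+LM8 mice, none was at 0 in all mice, and the part of platelets in the level of Ppbp was not tested.

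Cxcr2, the main receptor of these ligands on neutrophils, was 1.33, 0.794 and 1.38 FPKM in control, 8.86, 9.83 and 6.91 in IL-33 and 23.0, 19.3 and 20.6 in IL-33+LM8 mice. The 3 groups were far apart, with 157 to 325 counts in control and 3803 to 5919 in IL-33+LM8 mice. Its log2 fold change was 2.86 (SE 0.24, adjusted p = 6.6e-05) with IL-33 against control and 1.30 (SE 0.13, adjusted p = 0.00051) with IL-33+LM8 against IL-33. In IL-33+LM8 mice the mean FPKM was 17.9 times that of control, a log2 fold change of 4.17 (SE 0.22, adjusted p = 4.1e-05).

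Cxcr1, its neighbour with a narrower choice of ligands, stayed low at 0.324, 0.206 and 0.495 FPKM in control, 0.446, 0.400 and 0.472 in IL-33 and 1.18, 0.594 and 0.596 in IL-33+LM8 mice. Control and IL-33 mice overlapped, and every IL-33+LM8 mouse was above both, replicate 1 by the most. No comparison of Cxcr1 was called in edgeR fits of the 2 groups compared, while 1 fit of all 9 mice called it with IL-33+LM8 against control (adjusted p = 0.039). Its log2 fold change was 0.34 (95% interval -0.50 to 1.19, adjusted p = 0.45), 0.84 (0.04 to 1.63, adjusted p = 0.12) and 1.20 (0.18 to 2.21, adjusted p = 0.076) with IL-33 against control, IL-33+LM8 against IL-33 and IL-33+LM8 against control, from 20 to 111 counts a mouse in edgeR. The ratio of Cxcr2 to Cxcr1 FPKM was 4.11, 3.85 and 2.80 in control, 19.9, 24.6 and 14.6 in IL-33 and 19.4, 32.4 and 34.6 in IL-33+LM8 mice, so both treated groups were above control and overlapped each other.

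**Figure D3:**
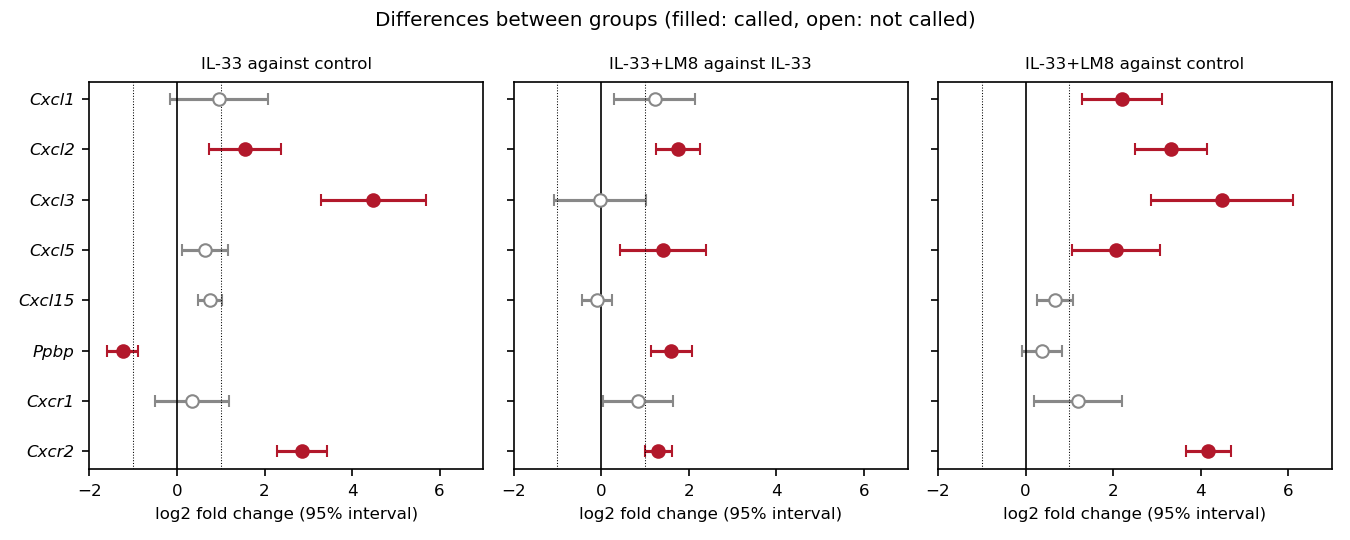
Log2 fold change (horizontal axis) of the 8 genes (rows) in IL-33 against control, IL-33+LM8 against IL-33 and IL-33+LM8 against control, with 95% intervals from edgeR. Filled points are called, open points are not, and dotted lines mark a log2 fold change of 1 in size. Ppbp is the only called gene left of 0, at -1.24 with IL-33, and Cxcl3 has its largest values against control and -0.02 between the treated groups.

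The markers of mature neutrophils moved with Cxcr2. The summed FPKM of 10 such markers was 28.1 to 35.7 in control, 191 to 217 in IL-33 and 869 to 1013 in IL-33+LM8 mice. Few genes make up most of it. S100a9 and S100a8 averaged 509 and 134 of 921 FPKM in IL-33+LM8 mice, and Retnlg 106 of 205 in IL-33 mice. Genes differed in size of change, and Il1r2 was at a log2 fold change of 0.27 between the treated groups (edgeR, adjusted p = 0.29). With IL-33 against control 9 of the 10 were called higher, with IL-33+LM8 against IL-33 6, and with IL-33+LM8 against control all 10, and none was called lower. Of these genes, Ly6g and Stfa2l1 passed the filter only through the IL-33+LM8 mice. Stfa2l1 had no count in IL-33 replicate 3, so its IL-33 mice overlapped control. Ly6g, a surface antigen of mouse neutrophils, was 0.0766 ± 0.0675, 0.623 ± 0.163 and 10.3 ± 1.61 FPKM (SD, n = 3), and S100a8, a calprotectin subunit, rose by a log2 fold change of 1.77 with IL-33 and by a further 3.51 with IL-33+LM8. Stfa2l1, a neutrophil stefin, had no count in any control mouse, and its IL-33+LM8 level was at least 46.8-fold higher than a floor of 3 counts per library.

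Set against those markers, the level of Cxcr2 depended on which were counted. Per 100 FPKM of the 10 markers Cxcr2 was 3.65 ± 1.33 FPKM in control, 4.16 ± 0.730 in IL-33 and 2.28 ± 0.0619 in IL-33+LM8 mice (SD, n = 3). Without S100a8 and S100a9, the calprotectin subunits, it was 8.13 ± 2.44, 5.88 ± 1.13 and 7.55 ± 0.106. So IL-33+LM8 mice were below IL-33 mice on the first measure and above them on the second. Cxcr1 per 100 FPKM of the 10 markers was 1.09 ± 0.607, 0.215 ± 0.0270 and 0.0844 ± 0.0282 FPKM, lowest in IL-33+LM8 mice, and without those 2 markers the treated groups overlapped at 0.302 ± 0.0250 and 0.279 ± 0.0909. The part of neutrophil number in either receptor's level was not tested.

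**Figure D4:**
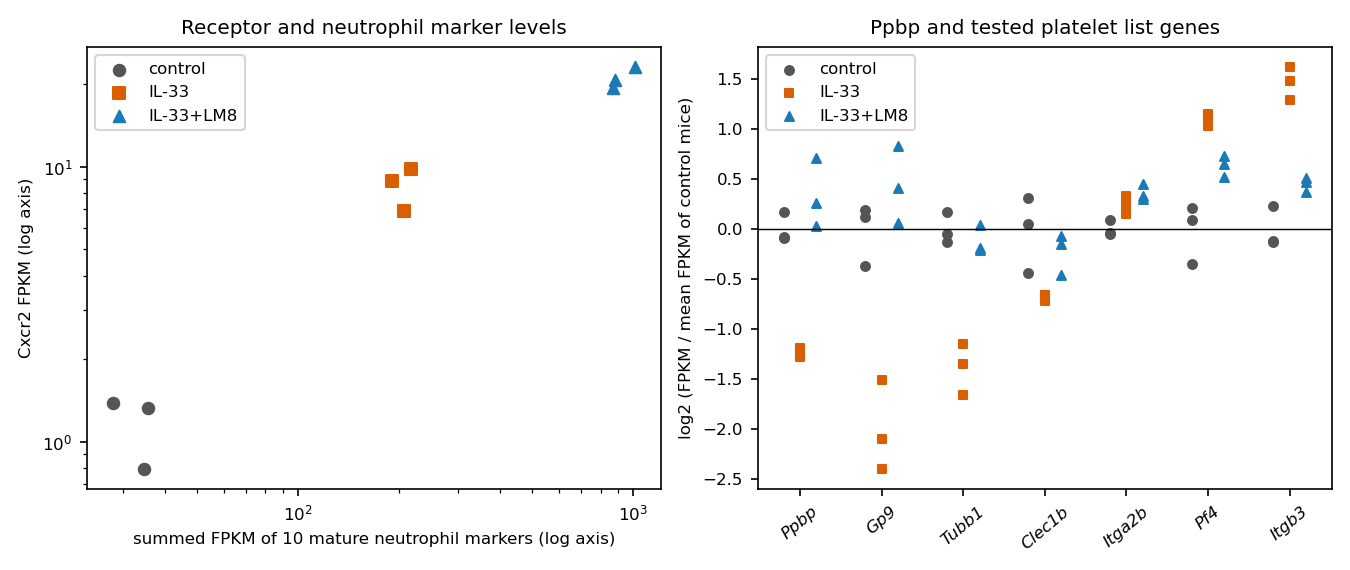
Left, Cxcr2 FPKM against the summed FPKM of 10 mature neutrophil markers, both on log axes, for the 9 mice. Right, log2 of FPKM over the mean FPKM of control mice for Ppbp and 6 platelet list genes in each mouse. The 3 groups form separate clusters on the left, with Cxcr2 at 19.3 to 23.0 FPKM in IL-33+LM8 mice, and on the right Gp9 and Tubb1 lie below 0 with Ppbp in IL-33 mice while Pf4 and Itgb3 lie above it.

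Immature granule genes gave 7 of 11 that passed the filter, with 5 called higher and none lower with IL-33 against control, 3 higher and 3 lower with IL-33+LM8 against IL-33, and all 7 higher with IL-33+LM8 against control. Of these 7, Prtn3 passed the filter only through the IL-33+LM8 mice. Ngp and Mmp8, granule proteins of developing neutrophils, rose by a log2 fold change of 2.70 and 2.60 between the treated groups, whereas Cebpe, a factor of granulocyte maturation, went from 6.76 to 1.13 FPKM and Chil3, also a macrophage gene, was called lower too. Among 7 of 8 other neutrophil chemoattractant receptors that passed the filter, 3 were called higher and 2 lower with IL-33. The formyl peptide receptors Fpr1 (log2 fold change -1.96) and Fpr2 (-1.41) fell with IL-33 while Cxcr2 rose, and Ltb4r1, the leukotriene B4 receptor, rose by 3.65 and Ccr1, a receptor of CC chemokines, by 3.02. With IL-33+LM8 against IL-33 Fpr1 (2.97) and Fpr2 (2.90) were the 2 called, both higher. Below the required fold, Ltb4r1 (-0.96), Ptafr (-0.74), Ccr1 (-0.66) and Cxcr4 (-0.65) were lower at adjusted p-values of 0.00028 to 0.001 in edgeR, and the median of the 7 was -0.65. Against control 6 were called higher in IL-33+LM8 mice and none lower.

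Of 18 genes listed for CXCR2 signalling, 9 were called higher and none lower with IL-33. The 9 included Pik3cg (log2 fold change 2.33), a kinase downstream of the receptor's G protein, and Dock2 (2.14) and Rac2 (2.07), which drive leukocyte movement. The list also holds the receptor kinases Grk2 and Grk6 and the arrestins Arrb1 and Arrb2, so it is not of forward signalling alone. Of these, Arrb2 (1.30) was among the 9. None of the 18 was called between IL-33+LM8 and IL-33 (edgeR), where their median was -0.35 while Cxcr2 was at 1.30. Without the required fold, 12 of them were lower and 1 higher at an adjusted p under 0.05 (12 and 3 at an unadjusted p under 0.05). Against control 6 were called higher in IL-33+LM8 mice and none lower, with Fgr at 1.93. These are levels of whole lung, not of neutrophils alone. Between IL-33 and IL-33+LM8 mice the summed macrophage and monocyte markers and the summed eosinophil markers fell, and the summed mature neutrophil markers rose. The part of each cell type in the levels of the 18 genes was not tested.

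Of 21 inducers and regulators of the ligands, 17 passed the filter. With IL-33 against control 6 were called higher and none lower, among them Il6 (log2 fold change 4.15), Il1rn (3.23), which encodes the IL-1 receptor antagonist, and Il1b (1.81), while Tnf was at 1.24 (edgeR, adjusted p = 0.064). With IL-33+LM8 against IL-33, Il1b (1.14) and Tnf (1.34), cytokines known to induce Cxcl1 and Cxcl2, were called higher and Il6 (-1.22) and Il1rn (-1.56) lower. Tnf passed the filter only through the IL-33+LM8 mice. In IL-33+LM8 mice 8 of the 17 were higher than in control and none lower, with Il1b at 2.97. Ackr1, the erythrocyte and endothelial receptor that binds these ligands without signalling, rose with IL-33 by 2.54. Il17a, Il17f, Il17c and Csf3 did not pass the filter.

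Markers of other lung cells moved as well. Macrophage and monocyte markers, with C1qb at a log2 fold change of 2.99 with IL-33 against control and Cd68 at -1.35 with IL-33+LM8 against IL-33, summed to 120 to 128 FPKM in control, 594 to 628 in IL-33 and 277 to 296 in IL-33+LM8 mice, with 8 of 10 called higher and 1 lower, 1 higher and 4 lower, and 6 higher and none lower in the 3 comparisons in the order used above. Eosinophil markers, with Prg2 at 6.67 with IL-33 against control and Ccr3 at -3.00 between the treated groups, summed to 102 to 115, 591 to 647 and 143 to 178 FPKM, with 6 of 7 higher, then all 7 lower, then 3 higher and 1 lower. Ccr3, which passed the filter only through the IL-33 mice, is in the 6, the 7 and the 3. The eosinophil sum is mostly Ear2, on average at 83.25 of 106.8 FPKM in control, 552.6 of 609.6 in IL-33 and 144.9 of 159.2 in IL-33+LM8 mice. In control mice Ear1 averaged 19.4 FPKM, Prg2 0.176 and Ccr3 0.0505, and Epx had no count. Which cells Ear2 and Ear1 came from was not tested, so the sum need not describe eosinophils alone. The markers of endothelium, with Kdr at -1.24 and Tek at -1.23 with IL-33, summed to 692 to 769, 424 to 462 and 646 to 663 FPKM, with 3 of 6 called lower with IL-33 and none in the other comparisons, where 6 were higher with IL-33+LM8 against IL-33 and 4 lower against control at an unadjusted p under 0.05 in edgeR. Cxcl1, Cxcl2, Cxcl5 and Cxcr2 were thus above IL-33 mice in every IL-33+LM8 mouse, where the macrophage and eosinophil sums lay below every IL-33 mouse. None of these markers was at 0 in all mice, and their part in the ligand levels was not tested.

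The genes whose levels over the 9 mice were most like those of each member were described by Pearson's r of log2(FPKM + 1), in which mice of 1 group share their treatment. Cxcr2 was closest to Cd244a (0.991), Csf3r (0.991), the G-CSF receptor of neutrophils, and Steap4 (0.989). Cxcl2 was closest to S100a9 (0.983), Ngp (0.983) and S100a8 (0.982), all neutrophil genes. Cxcl1 was closest to Ifitm3 (0.974), Yars (0.971) and Ufm1 (0.960), and Cxcl5 to Ybx3 (0.973), Nucb2 (0.964) and Fxyd6 (0.952). None of these 6 is in a neutrophil list used here, but those lists are short, so absence from them says nothing on the cells of origin.

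Cxcl3 was closest to Loxl4 (0.989), Mydgf (0.988) and Gmppb (0.986), and Cxcl15 to Serpina3h (0.986), Farsa (0.985) and Psmb2 (0.984). Ppbp was closest to Hs3st1 (0.980), 2410004I01Rik (0.977) and Plpp1 (0.976), none of them in the platelet list, which is as short. Cxcr1, the lowest of the 8 in IL-33+LM8 mice, was closest to Gm5846 (0.930), BC023105 (0.898) and Cxcl9 (0.897). Between members r over the 9 mice was 0.92 for Cxcl1 and Cxcl2, 0.94 for Cxcl3 and Cxcl15 and 0.91 for Cxcl2 and Cxcr2. It was -0.30 for Cxcl15 and Ppbp and 0.04 for Ppbp and Cxcr2, the lowest among pairs with Cxcr2.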

How the data were processed

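RNA of 9 lungs was extracted with TRIzol and sequenced on standard Illumina libraries. The deposited table holds, per gene and mouse, raw read counts and FPKM that the authors' pipeline made. The submitters' processing notes name HISAT2 2.0, StringTie 1.3.0, Bowtie 0.12.2 and mm10, with no role. The table's coordinates differ from GRCm38 in GENCODE M21 and were not mixed with reference coordinates. Strand use in counting and any test for differences are not given in the sources used here. Groups came from the sample labels.

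Deposited counts were tested in edgeR 4.0.16 (R 4.3.3, TMM factors, the 2 groups compared in each fit, no covariate) on genes with a mean of at least 0.5 FPKM over 9 mice and any count in those groups, 16831, 16831 and 16829 genes. The script was tested on simulated data. Levels, shares, ratios and overlap of groups used FPKM. The 95% intervals are edgeR's and include the spread between mice, and the floor of 3 counts covers counting error only. Alternatives used DESeq2 1.42.0, limma 3.58.1 on log2(FPKM + 1) and log2(FPKM + 0.1), other filters and factors, a fit of all mice, the replicate number as a block and omission of single mice.

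Named were the 8 genes, Pf4, up to 2 called genes of largest change per list and comparison (1 item is not reported here), the most abundant of some lists, and the 3 genes most like each member, while Itga2b, Clec1b, Ackr1, Ptafr and Sftpd were added after their values were seen. Members and lists were chosen with earlier results of these data known. Mice of a group differed by 24.1 times sampling variance or more, so no library was a copy of another.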

Additional observations from a re-analysis of the deposited data

How the results depend on the processing

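Over the alternatives of the log2 fold changes of the 8 genes, 323 of 345 values kept their direction and side of the thresholds, 11 lost the call, 7 gained it and 4 reversed. With a minimum mean of 5 FPKM only Cxcl15, Ppbp and Cxcr2 were tested, and 2, 2 and 1 were called in IL-33 against control, IL-33+LM8 against IL-33 and IL-33+LM8 against control, in place of 4, 4 and 5. Leaving out 1 mouse left 4, 3 to 4 and 5 called. The reversed values were never called. They were Cxcl3 in IL-33+LM8 against IL-33, which ranged from -0.50 to 0.36 as 1 mouse was left out, and Cxcl15 in the same comparison, from -0.271 to 0.032. The cause was not tested.

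Deviations of mice sharing a replicate number correlated from -0.42 to 0.67 over 9 pairs, so the numbers gave no likeness common to all comparisons. Correlations of either sign occurred for IL-33 with control and for IL-33+LM8 with IL-33. For IL-33+LM8 with control they were 0.31, 0.32 and 0.67 in replicates 1, 2 and 3, where unlike numbers gave -0.44 to 0.20. Whether mice were paired by number in the experiment was not tested. Control replicate 3, IL-33 replicate 1 and IL-33+LM8 replicate 3, the deepest library of each group, deviated alike. Control replicate 3 correlated at 0.65 with IL-33 replicate 1, and each of these at 0.67 with IL-33+LM8 replicate 3. The cause of this likeness was not tested. With the number as a replicate block, 4, 3 and 5 of the 8 genes and 2841, 836 and 1364 of all genes were called, against 2865, 907 and 1233 without the block, and the member lost was Cxcl5 with IL-33+LM8 against IL-33 (adjusted p = 0.050). That call was also lost with no filter (edgeR, adjusted p = 0.071), with limma and without any 1 of 5 mice, and over its alternatives the adjusted p ran from 0.0018 to 0.13. Cxcl1 in the same comparison gained a call with DESeq2 (adjusted p = 0.0035), with limma on log2(FPKM + 0.1) (0.049) and without IL-33 replicate 3 (0.012), and Cxcr1 against control gained one in 1 fit of 9 mice (0.039). On log2(FPKM + 1), which shrinks low genes, Cxcl2 with IL-33 (0.60) and Cxcl3 with IL-33+LM8 against control (0.98) fell under the fold required. Over all genes, calls were 1741, 439 and 588 with limma on log2(FPKM + 1), 1176, 304 and 469 with the stricter filter and 9193, 4459 and 4997 with no minimum fold, where Cxcl5 and Cxcl15 also passed with IL-33 and Cxcl15 with IL-33+LM8 against control. Shares of the ligands on counts in place of FPKM put Cxcl15 at 98.2, 98.6 and 96.7% in control, IL-33 and IL-33+LM8 mice. Other shares moved more. Ppbp was at 1.23, 0.304 and 0.963% on counts and at 2.38, 0.596 and 1.87% on FPKM. In IL-33 mice Cxcl3 averaged 0.384% and Cxcl1 0.279% on counts, against 0.232% and 0.314% on FPKM, so their order depends on the scale. The shares over 4 ligands were added after the data were seen. Counts of 4 to 23 for Cxcl3 in control and 20 to 111 for Cxcr1 limit what those genes can show.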
